A study of Danio rerio with 18 samples.

Results

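AngioTag transgenic zebrafish embryos at 24 hours post fertilization (hpf) were the source of endothelial cells sorted on their GFP by flow cytometry (FACS), and the RNA of these cells was compared with total RNA of embryos of the same line. The comparison took all 3 FACS sorted and all 3 FACS total libraries, which are 6 of the 18 libraries of the series. Both groups came from pooled embryos positive for the transgene, and the labels state neither the number of embryos in a pool nor whether the samples were separate pools, so the spread behind each p-value is that between samples and may be technical. The labels do not say whether FACS total RNA was taken from dissociated embryos. That the kdrl promoter drives GFP and an HA-tagged ribosomal protein in this line is known from the study and is not in the labels, so a gate on GFP takes any cell that holds the protein. The question was which genes of each functional class stood higher or lower in the sorted cells than in the embryo as a whole.

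Endothelial cells line every blood vessel. They arise from mesoderm under Ets, Sox and GATA transcription factors, some of them together with blood progenitors, and sense vascular endothelial growth factor (VEGF) through receptor tyrosine kinases. Their junctions, held by VE-cadherin and claudin, seal the vessel, and Notch signalling separates arteries from veins. Around 24 hpf the main trunk artery and vein of the zebrafish begin to carry blood and the first branches sprout between the body segments.

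Levels are given as normalised counts per mega (M) counts of a library (CPM), scaled over these 6 libraries, for samples 1, 2 and 3 in that order. Differences are log2 fold changes of FACS sorted over FACS total with their standard error (SE), tested with edgeR's quasi-likelihood F test, and "rose" and "fell" are used for genes with a Benjamini-Hochberg adjusted p below 0.05. Symbols in capitals are those of the name table, which gives the zebrafish copies of a gene 1 human-style symbol, and are followed by the Ensembl identifier where the copy matters. CPM were not divided by gene length and are compared only within a gene.

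The libraries held 41.3, 18.3 and 38.4 M counts in FACS sorted and 42.0, 40.8 and 45.5 M in FACS total. A single gene, zgc:158463, took 15.3% of the counts of FACS sorted 2 and 0.0129% to 0.274% of those of the other libraries. In each group, sample 3 stood apart in genes of other cell types. The 23 erythroid genes tested summed to 7417, 6841 and 36826 CPM in FACS sorted, against 4381, 2575 and 6805 CPM in FACS total. The 19 pigment and neural crest genes summed to 238, 219.9 and 1686 CPM in FACS sorted, against 819.5, 862.5 and 717 CPM in FACS total. The 36 skeletal muscle genes summed to 1138, 1271 and 1406 CPM in FACS sorted, against 7672, 4361 and 18257 CPM in FACS total. FACS total 3 was also high in epidermal, hatching gland and ribosomal protein genes, and results that rest on a sample 3 are given without it below.

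Of 19326 genes tested, 2678 (13.9%) were higher and 2868 (14.8%) lower in the sorted cells, 5546 (28.7%) in all. A log2 fold change of at least 1 was reached by 2455 genes that rose and 2726 that fell, of at least 2 by 1308 and 1466, of at least 3 by 712 and 339, and of at least 5 by 138 and 6. Falls thus outnumbered rises at a size of 1 or 2, and rises outnumbered falls at 3 or 5. With upper-quartile scaling 2199 genes were higher and 3657 lower, since that scaling set the median log2 fold change of all genes at -0.312, against -0.106 with the scaling used here. With RLE scaling 2930 were higher and 2562 lower, and by DESeq2 3371 and 3141, each at a median of -0.018. Which direction held more genes thus depended on the scaling and method. All 3 sorted libraries lay above all 3 FACS total libraries for 3884 genes (20.1%) and below them for 4733 (24.5%).

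**Figure D1:**
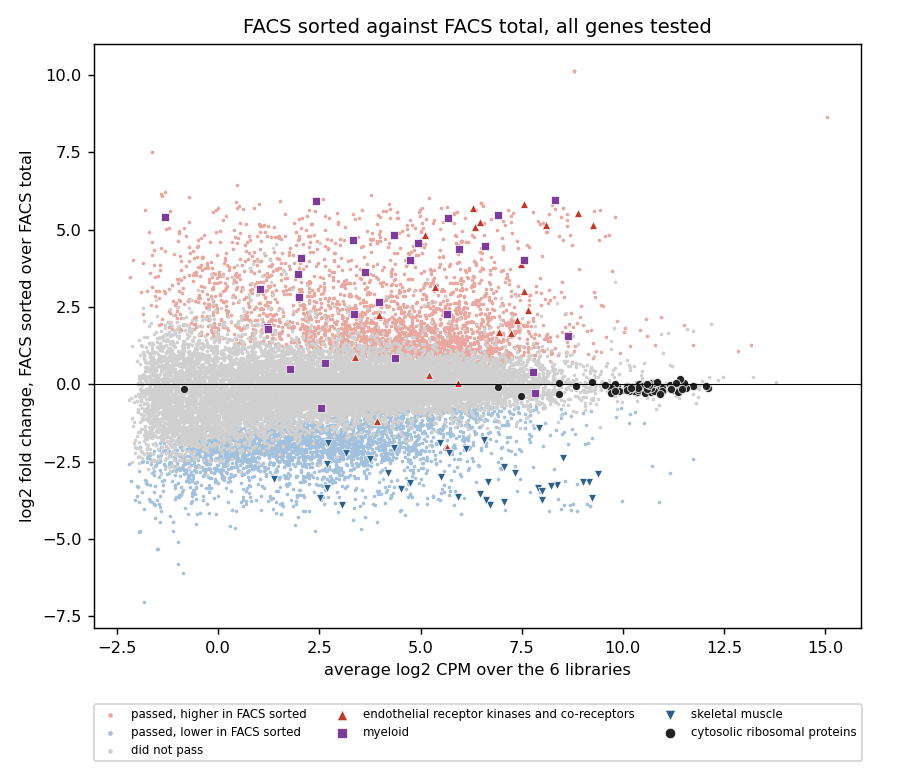
Each point is 1 of the 19326 genes tested, with its average log2 CPM over the 6 libraries on the horizontal axis and its log2 fold change, FACS sorted over FACS total, on the vertical axis. Triangles of endothelial receptor genes and squares of myeloid genes lie mostly above 0, skeletal muscle genes all lie below it, and ribosomal protein genes lie along it.

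The endothelial markers kdrl, stab1 and rasip1 were compared between the groups. Of these, kdrl is no independent check of cell type, since its promoter drives the GFP of the gate. The VEGF receptor gene kdrl stood at 1351, 986 and 1249 CPM in FACS sorted, against 32.5, 29.7 and 39.6 CPM in FACS total, a log2 fold change of 5.14 ± 0.31 (edgeR adjusted p = 3.81e-05). The scavenger receptor gene stab1 stood at 702, 599 and 481 CPM in FACS sorted, against 11.4, 10.4 and 10.7 CPM in FACS total, a log2 fold change of 5.78 ± 0.31. The gene of the Rap and Ras effector rasip1, needed for vessel lumens, stood at 706, 666 and 524 CPM in FACS sorted, against 12.2, 10.6 and 14.3 CPM in FACS total, a log2 fold change of 5.68 ± 0.31. For all 3 genes the lowest sorted library was far above the highest FACS total library, and the adjusted p of stab1 and rasip1 was also 3.81e-05.

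Genes of endothelial receptor kinases and co-receptors rose in 17 of 22 cases and fell in 1, with a median log2 fold change of 3.09 beside -0.106 over all genes tested. In bulk RNA, a larger share of cells of a type and more RNA per cell cannot be told apart, here and in every comparison that follows. The decoy VEGF receptor gene flt1 stood at 426, 525 and 153 CPM in FACS sorted, against 7.02, 7.69 and 4.81 CPM in FACS total (5.82 ± 0.52, edgeR adjusted p = 0.000141). Both genes of VEGFR2 type rose, since KDR (ENSDARG00000017321) stood at 194, 102 and 167 CPM in FACS sorted, against 3.25, 3.2 and 2.51 CPM in FACS total (5.69 ± 0.35). FLT4, the receptor for VEGF-C in veins and lymphatics, stood at 548, 574 and 489 CPM in FACS sorted, against 13.4, 15 and 17.3 CPM in FACS total (5.14 ± 0.29). The angiopoietin receptor tek and its partner TIE1 rose by 5.25 ± 0.32 and 5.53 ± 0.41. The single fall was PDGFRA, a receptor of mesenchymal cells, at 21.3, 19.6 and 18.1 CPM in FACS sorted, against 80.6, 96.8 and 65.2 CPM in FACS total (-2.04 ± 0.26, adjusted p = 0.000797).

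Adhesion and junction genes rose in 19 of 26 cases and fell in 1, with a median log2 fold change of 2.68. VE-cadherin, cdh5, the main adhesion protein of endothelial junctions, stood at 1468, 1011 and 1562 CPM in FACS sorted, against 30.4, 22 and 28.6 CPM in FACS total (5.64 ± 0.34). The platelet endothelial adhesion gene pecam1a stood at 253, 422 and 167 CPM in FACS sorted, against 4.03, 4.84 and 7.98 CPM in FACS total (5.64 ± 0.48). ESAM, an immunoglobulin-type adhesion gene, was even across sorted libraries, at 241, 230.1 and 230.4 CPM, against 4.87, 4.8 and 6.2 CPM in FACS total (5.47 ± 0.28). The gap junction gene gja4 had the largest rise under the rule for named genes, at 32.3, 41.3 and 8.38 CPM in FACS sorted, against 0.441, 0.429 and 0.284 CPM in FACS total (6.13 ± 0.65, edgeR adjusted p = 0.000316). Its sorted sample 3 was the lowest of the sorted libraries and still above every FACS total library. The leukocyte adhesion gene sele rose by 5.76 ± 0.61. The single fall in the list was in jam2b, and it was lost without FACS sorted 1, FACS total 1 or FACS total 2.

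The claudins divided by gene. Of 35 tested, 2 rose (5.71%) and 12 fell (34.3%), beside 13.9% and 14.8% over all genes tested. A copy of CLDN5 (ENSDARG00000014059), the tight junction claudin of vessels, stood at 1601, 2256 and 842 CPM in FACS sorted, against 55.2, 49.9 and 60 CPM in FACS total (4.83 ± 0.42). The other CLDN5 copy (ENSDARG00000043716) stood at 97.2, 34.8 and 59.8 CPM in FACS sorted, against 138, 122 and 82.8 CPM in FACS total, a difference of -0.84 ± 0.38 that did not pass the test (adjusted p = 0.134). The sorted libraries of that copy overlapped FACS total. Claudins of epithelia fell, among them cldn3c at 6.32, 10.8 and 7.04 CPM in FACS sorted, against 36.5, 41.2 and 61.1 CPM in FACS total (-2.53 ± 0.33), and cldn8.2 by -2.71 ± 0.49. The number of claudins that rose was 1 without FACS total 1. Among 73 cadherins and protocadherins 19 fell (26.0%) and 5 rose (6.85%), cdh5 and PCDH12 (3.35 ± 0.30), an endothelial protocadherin, among the rises. The number that fell was 11 without FACS sorted 1 or without FACS total 1 and 12 without FACS total 2.

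**Figure D2:**
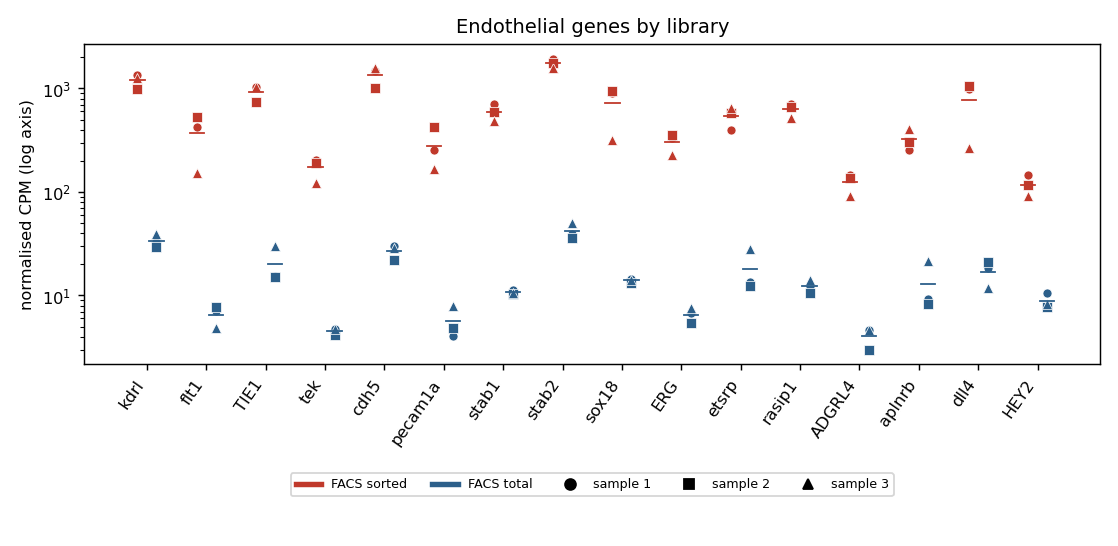
Normalised CPM on a log axis for 16 endothelial genes, with FACS sorted (red) left of FACS total (blue) for each gene. Symbols mark samples 1 to 3 and bars the group mean, and for every gene shown the 3 sorted libraries lie above the 3 FACS total libraries. The genes drawn were picked among those that rose, so this separation is no independent result. Of all genes tested, 20.1% show it.

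Scavenger and venous genes rose in 12 of 13 cases, with a median log2 fold change of 4.59. Scavenger receptors of endothelium take up waste from the blood, and stab2 stood at 1946, 1754 and 1586 CPM in FACS sorted, against 39.5, 35.6 and 50.4 CPM in FACS total (5.40 ± 0.32). The mannose receptor gene MRC1 stood at 1566, 987 and 1093 CPM in FACS sorted, against 26.6, 21.2 and 27.9 CPM in FACS total (5.59 ± 0.34). Both were high in every sorted library. The exception was NR2F2 (COUP-TFII), a regulator of vein identity that is also used by other mesoderm and by the nervous system, which stood at 34.6, 35 and 44.8 CPM in FACS sorted, against 93.2, 105 and 65.8 CPM in FACS total (-1.21 ± 0.27, adjusted p = 0.0103). Without FACS sorted 1 the fall of NR2F2 was -1.13 and did not pass (adjusted p = 0.0541).

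Lysosomal genes rose with the scavenger receptors. Of 32 cathepsins and lysosomal genes tested, 23 rose and 2 fell, with a median log2 fold change of 1.41, and 2 of them are also in the scavenger list. The asparagine protease legumain, LGMN, stood at 621, 597 and 333 CPM in FACS sorted, against 59.8, 54.3 and 72.2 CPM in FACS total (3.06 ± 0.33). The cathepsin gene ctss2.1 stood at 37.9, 40 and 63.7 CPM in FACS sorted, against 3.93, 3.29 and 2.3 CPM in FACS total (3.89 ± 0.35), and CTSH rose by 2.58 ± 0.31. The cathepsin L genes moved apart. The gene ctsla stood at 3391, 4214 and 1993 CPM in FACS sorted, against 593, 674 and 872 CPM in FACS total (2.17 ± 0.35). Both genes that fell were of the ctslb type, which the hatching gland uses, with ctslb at 46.8, 65.3 and 29.2 CPM in FACS sorted, against 366, 395 and 1337 CPM in FACS total (-3.89 ± 0.59). Without FACS total 3 the fall of ctslb was -3.01 and that of ctslb.4 was -3.16, against -3.92 with it, and reads of such close copies can be split between them.

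Endothelial transcription factors rose in 20 of 27 cases and fell in 1, NR2F2, and their median log2 fold change was 3.35. The Sox gene sox18, which acts in arteriovenous and lymphatic specification, stood at 909, 937 and 315 CPM in FACS sorted, against 14.5, 13.2 and 14.3 CPM in FACS total (5.69 ± 0.48). The Ets factor ERG stood at 332, 352 and 229 CPM in FACS sorted, against 6.74, 5.39 and 7.5 CPM in FACS total (5.54 ± 0.32). Another Ets factor gene, etsrp, which starts vessel formation in zebrafish, stood at 401, 575 and 651 CPM in FACS sorted, against 13.5, 12.3 and 28.2 CPM in FACS total (4.91 ± 0.43). Sorted sample 3 was the lowest of its group for sox18 and the highest for etsrp, and none of these genes overlapped between groups. FLI1 and hhex rose by 4.81 ± 0.29 and 5.38 ± 0.36. The flow-responsive factor gene klf2a, also an immediate early gene, stood at 102, 124 and 66.8 CPM in FACS sorted, against 6.56, 6.9 and 7.34 CPM in FACS total (3.82 ± 0.31).

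Among small GTPase regulators of vessels 12 of 21 rose, and none fell by edgeR (0 at an unadjusted p under 0.05 and 0 by DESeq2). Besides rasip1, the Cdc42 exchange factor genes fgd5a and fgd5b stood high. The gene fgd5a stood at 619, 426 and 649 CPM in FACS sorted, against 12.1, 13.1 and 11.8 CPM in FACS total (5.52 ± 0.31), and fgd5b at 39.4, 39.7 and 31.4 CPM in FACS sorted, against 0.742, 0.51 and 0.687 CPM in FACS total (5.83 ± 0.33). CCM2L, a paralog of the cerebral cavernous malformation gene CCM2, rose by 5.63 ± 0.35.

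Of 27 endothelial G protein-coupled receptor genes and partners tested, 18 rose (66.7%) and 3 fell (11.1%), beside 13.9% and 14.8% over all genes tested. Their median log2 fold change was 2.68. The apelin receptor gene aplnrb, active in angioblasts and sprouting vessels, stood at 257, 305 and 409.6 CPM in FACS sorted, against 9.35, 8.22 and 21.5 CPM in FACS total (4.63 ± 0.45). The adhesion receptor gene ADGRL4 stood at 147, 138 and 92.2 CPM in FACS sorted, against 4.63, 2.98 and 4.64 CPM in FACS total (4.94 ± 0.34). The endothelin receptor gene ednrab stood at 3.31, 2.55 and 4.51 CPM in FACS sorted, against 15.8, 11.3 and 24.3 CPM in FACS total (-2.30 ± 0.39). The thrombin-family receptor gene F2RL1 (ENSDARG00000077540) fell by -1.84 ± 0.33. Both copies of the chemokine receptor gene CXCR4 rose, ENSDARG00000057633 by 4.37 ± 0.50 and ENSDARG00000041959 by 2.46 ± 0.40, and the first was 3.73 without FACS sorted 2. Over the wider family of 26 adhesion G protein-coupled receptors, 6 rose (23.1%) and 8 fell (30.8%), with ADGRG6 (3.52 ± 0.31) among the rises and ADGRD2 (-2.2 ± 0.45) among the falls. The number that fell was 2 without FACS sorted 1, 2 without FACS total 1 and 3 without FACS total 2.

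In the Notch pathway an arterial ligand and target rose, while the receptor genes given below did not pass over all 6 libraries. The ligand gene dll4 stood at 997, 1048 and 264 CPM in FACS sorted, against 18.3, 20.9 and 11.7 CPM in FACS total (5.50 ± 0.58, edgeR adjusted p = 0.000325). The target gene HEY2, a repressor of venous fate, stood at 144, 118 and 91.2 CPM in FACS sorted, against 10.5, 7.82 and 8.26 CPM in FACS total (3.73 ± 0.29). The ligand gene dlc stood at 280.4, 264 and 122 CPM in FACS sorted, against 32.5, 43.3 and 30.7 CPM in FACS total (2.64 ± 0.36). The gene her12 of the same list rose by 1.95 ± 0.62 (edgeR adjusted p = 0.043), but its groups overlapped. That call was lost without any 1 library other than FACS sorted 3. The neural ligand gene dlb went the other way, at 44.8, 67.1 and 42.9 CPM in FACS sorted, against 176, 296 and 151 CPM in FACS total (-2.01 ± 0.34). The receptor gene NOTCH3 stood at 324, 201 and 333 CPM in FACS sorted, against 401, 526 and 149.9 CPM in FACS total (-0.33 ± 0.44, adjusted p = 0.62), and its libraries overlapped. A NOTCH1 copy (ENSDARG00000052094) had a difference of 1.2 ± 0.50 that did not pass (adjusted p = 0.106). Without both sample 3 libraries that copy had 0.89 and passed (edgeR adjusted p = 0.0204). Another NOTCH1 copy (ENSDARG00000103554) had 0.32 with all 6 libraries and 0.19 without both sample 3 libraries, and passed in neither case. Of 22 genes tested, 7 rose (31.8%) and 2 fell (9.09%), beside 13.9% and 14.8% over all genes tested. Their median log2 fold change was 0.94. The number that rose was 12 without FACS sorted 3, 4 without FACS sorted 2, 3 without FACS sorted 1 or any 1 FACS total library and 4 with upper-quartile scaling, and the number that fell was 1 without FACS sorted 1, FACS sorted 3, FACS total 1 or FACS total 2. The 22 genes tested summed to 5523, 5361 and 2655 CPM in FACS sorted, against 2540.5, 2819 and 1407 CPM in FACS total, so sample 3 was lowest in both groups.

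Guidance genes rose and fell in like numbers. Of 44 semaphorins, plexins and neuropilins, 12 rose (27.3%) and 10 fell (22.7%), beside 13.9% and 14.8% over all genes tested. The plexin gene plxnd1, the semaphorin receptor of vessels, stood at 87.3, 66.6 and 45.9 CPM in FACS sorted, against 2.85, 2.57 and 1.56 CPM in FACS total (4.83 ± 0.39). The VEGF co-receptor gene nrp1b stood at 332, 238 and 429 CPM in FACS sorted, against 25, 25.9 and 17 CPM in FACS total (3.88 ± 0.34), and the ligand gene SEMA3A (ENSDARG00000042210) rose by 4.25 ± 0.38. The neuronal plexin gene PLXNA4 fell by -2.29 ± 0.44 and the ligand gene SEMA3D by -1.85 ± 0.31. The number of falls was 3 to 6 with FACS sorted 1, 2 or 3 or FACS total 1 or 2 left out (5, 6, 6, 4 and 3). Of 29 ephrins and Eph receptors, 8 rose (27.6%) and 9 fell (31.0%). The arterial ligand gene EFNB2 (ENSDARG00000020164) stood at 524, 597 and 354 CPM in FACS sorted, against 77.8, 90.4 and 72.5 CPM in FACS total (2.62 ± 0.29). The number of Eph family rises was 5 without FACS sorted 1, FACS total 1 or FACS total 2, and that of falls was 5 without FACS sorted 1 or 2 and 1 without FACS sorted 3, FACS total 1 or FACS total 2.

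Basement membrane genes moved by chain, with 8 of 22 rising and 8 falling and a median log2 fold change of -0.15. Each share was 36.4%, beside 13.9% higher and 14.8% lower over all genes tested. The collagen IV chains found in most basement membranes rose. COL4A1 stood at 189, 116 and 133 CPM in FACS sorted, against 16.7, 17.9 and 11 CPM in FACS total (3.27 ± 0.32), and COL4A2 stood at 161, 79.3 and 71.2 CPM in FACS sorted, against 11.4, 12.6 and 8 CPM in FACS total (3.28 ± 0.39). Some laminin chain genes rose too. The gene lama4 stood at 443, 475 and 323 CPM in FACS sorted, against 48.6, 56.2 and 50.4 CPM in FACS total (3.00 ± 0.27), and LAMB1 (ENSDARG00000045524) rose by 4.51 ± 0.40. LAMB2, another laminin chain gene, fell by -1.91 ± 0.30. The number of falls was 5 without FACS sorted 1 or FACS total 1 and 4 without FACS total 2. Fibrillar and fibril-associated collagens fell in 11 of 22 cases and rose in none by edgeR (0 at an unadjusted p under 0.05 and 0 by DESeq2). COL5A2 stood at 64.1, 67.2 and 64.3 CPM in FACS sorted, against 242, 301 and 291 CPM in FACS total (-2.09 ± 0.24). The number of collagen falls was 5 without FACS sorted 1, FACS total 1 or FACS total 2, 6 without FACS sorted 3, 7 with RLE scaling, 18 without FACS sorted 2 and 18 with all 18 libraries in 1 fit.

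Integrins rose in 11 of 29 cases (37.9%) and fell in 3 (10.3%), beside 13.9% and 14.8% over all genes tested. Their share of falls was thus not above the background. The leukocyte integrin gene itgb2 stood at 21.9, 18.8 and 22.5 CPM in FACS sorted, against 0.702, 1.12 and 0.497 CPM in FACS total (4.76 ± 0.39). The collagen receptor gene ITGA1 stood at 207, 129 and 74.8 CPM in FACS sorted, against 11.2, 12.8 and 7.5 CPM in FACS total (3.71 ± 0.42). The integrins that rose thus include genes of leukocytes and of vessels. The number that fell was 1 without FACS total 1, 5 without FACS total 3, 5 with upper-quartile scaling and 5 with all 18 libraries in 1 fit.

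Many genes of the myeloid, thrombocyte and blood progenitor lists were higher in the sorted cells, while the calls of erythroid genes depended on single libraries. Myeloid genes rose in 22 of 29 cases, with a median log2 fold change of 3.58. None fell by edgeR (0 at an unadjusted p under 0.05 and 0 by DESeq2). The myeloid list shares no gene with that of endothelial receptor kinases and co-receptors. Its overlap with the other endothelial lists was not counted. The lysozyme gene lyz stood at 578, 1082 and 221 CPM in FACS sorted, against 10.2, 16.4 and 3.98 CPM in FACS total (5.94 ± 0.75, edgeR adjusted p = 0.000803), and without FACS sorted 2 its log2 fold change was 5.30. SPI1, the master regulator of myeloid cells, stood at 36.4, 30.7 and 49.9 CPM in FACS sorted, against 0.923, 1.84 and 1.33 CPM in FACS total (4.84 ± 0.38). The granule proteoglycan gene srgn stood at 252, 323 and 132 CPM in FACS sorted, against 6.3, 5.88 and 3.67 CPM in FACS total (5.48 ± 0.44). The 29 myeloid genes summed to 3021, 4119.7 and 2109.7 CPM in FACS sorted, against 749.7, 825 and 724 CPM in FACS total. The summed level of the myeloid genes was thus above FACS total in every sorted library, and their part in the rises of lysosomal, integrin and receptor genes was not tested. Copies of the macrophage perforin gene MPEG1 moved unequally, ENSDARG00000055290 by 2.82 ± 0.59, while ENSDARG00000043093 had -0.77 and did not pass (adjusted p = 0.173).

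Thrombocyte genes rose in 6 of 10 cases and fell in 2. The thrombocyte marker itga2b was removed by the low-count filter. It stood at 0.329, 0.212 and 0.715 CPM in FACS sorted, against 0.1, 0.102 and 0.237 CPM in FACS total. The thrombopoietin receptor gene mpl stood at 5.24, 8.28 and 13.7 CPM in FACS sorted, against 0.341, 0.102 and 0.544 CPM in FACS total (4.78 ± 0.65). The clotting factor gene f13a1b stood at 737, 568 and 827 CPM in FACS sorted, against 25.9, 16.3 and 41.2 CPM in FACS total (4.68 ± 0.41). FERMT3 (ENSDARG00000030938), the kindlin of blood cells, rose by 4.45 ± 0.38, and THBS1, which many embryonic tissues also use, fell by -1.64 ± 0.31. Blood progenitor regulators rose in 8 of 13 cases and none fell by edgeR (0 at an unadjusted p under 0.05 and 0 by DESeq2), but 5 of the 13 are also in the endothelial transcription factor list. GATA2 stood at 120.4, 136 and 96.7 CPM in FACS sorted, against 10.6, 14.7 and 7.15 CPM in FACS total (3.44 ± 0.34), and IKZF1, a lymphoid and progenitor factor, at 10.4, 10.2 and 29.6 CPM in FACS sorted, against 1.5, 1.12 and 2.63 CPM in FACS total (3.26 ± 0.54).

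Erythroid genes were highest in FACS sorted 3, and their calls depended on which libraries were kept. The globin gene hbae3 stood at 2158, 2193 and 9909 CPM in FACS sorted, against 1286, 778 and 2044 CPM in FACS total, a difference of 1.80 ± 0.64 that did not pass (adjusted p = 0.064). The haem synthesis gene alas2 stood at 146, 100 and 999 CPM in FACS sorted, against 96.4, 51.6 and 122 CPM in FACS total (2.2 ± 0.80, adjusted p = 0.0689). The erythroid regulator gata1a stood at 8.95, 8.56 and 69.5 CPM in FACS sorted, against 4.79, 2.16 and 6.6 CPM in FACS total (2.69 ± 0.83, adjusted p = 0.039). In each case sorted sample 3 was the highest of the 6 libraries, and without it gata1a had 1.08, alas2 0.58 and hbae3 0.79. Of 23 genes, 8 rose (34.8%), beside 13.9% over all genes tested, while 0 rose without FACS sorted 3, FACS total 1 or FACS total 2 and 3 without FACS total 3. The count was 4 with upper-quartile scaling, 20 without FACS sorted 2, 17 by DESeq2 and 20 with all 18 libraries in 1 fit. Without both sample 3 libraries 12 rose and 1 fell, and hbae3 then had 1.21 (edgeR adjusted p = 0.00679), gata1a 1.46 (adjusted p = 0.0166) and alas2 0.87 (adjusted p = 0.0501). Over all 6 libraries none fell by edgeR (1 at an unadjusted p under 0.05 and 1 by DESeq2).

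**Figure D3:**
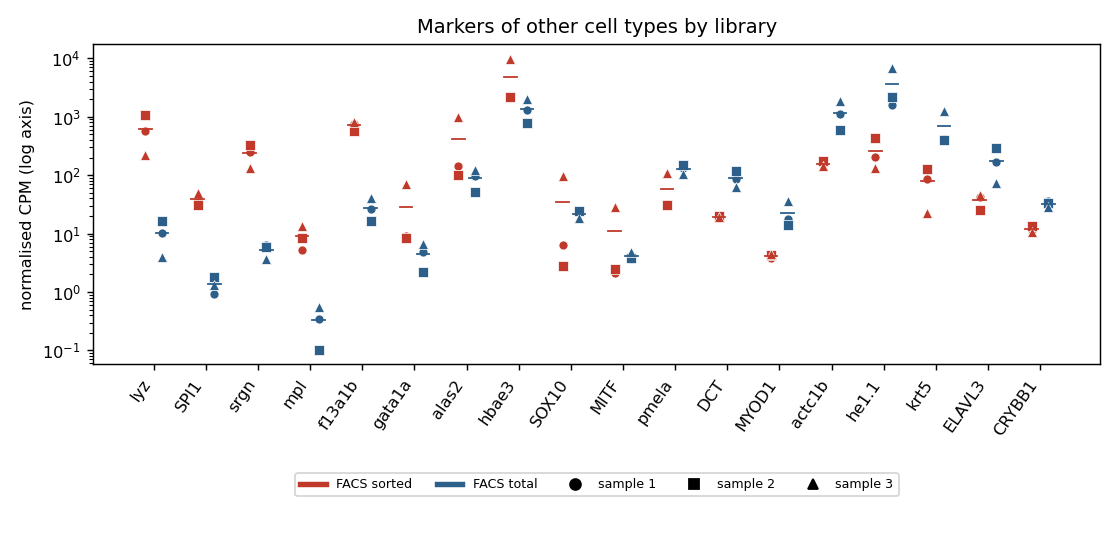
Normalised CPM on a log axis for 18 markers of blood, pigment, muscle, hatching gland, skin, neural and lens cells, with FACS sorted (red) left of FACS total (blue). Sorted sample 3 (red triangles) is highest of the sorted libraries for gata1a, alas2, hbae3, SOX10 and MITF, and FACS total 3 (blue triangles) is highest of its group for actc1b, he1.1 and krt5.

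Skeletal muscle genes were the most depleted of the tissue lists. All 36 tested fell in the sorted cells, with a median log2 fold change of -3.15, and none rose by edgeR (0 at an unadjusted p under 0.05 and 0 by DESeq2). The calcium store gene CASQ1 (ENSDARG00000038716) stood at 0.822, 0.991 and 1.26 CPM in FACS sorted, against 14.9, 5.29 and 26.4 CPM in FACS total (-3.91 ± 0.59). The fast troponin gene TNNT3 (ENSDARG00000030270) stood at 17.6, 18.5 and 16.7 CPM in FACS sorted, against 162, 87.6 and 494 CPM in FACS total (-3.82 ± 0.60), and the calcium buffer gene pvalb2 fell by -3.75 ± 0.59. FACS total 3 was highest and FACS total 2 lowest for these genes, and without FACS total 3 the log2 fold changes were -3.29 for CASQ1, -2.82 for TNNT3 and -2.97 for pvalb2. The muscle regulator MYOD1 stood at 3.76, 4.25 and 4.54 CPM in FACS sorted, against 18, 13.9 and 35.5 CPM in FACS total (-2.43 ± 0.39). The count of falls was 29 to 36 with 1 library left out and 35 with both sample 3 libraries left out.

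Heart and mural lists were split. Of 12 heart genes 4 fell (33.3%) and 2 rose (16.7%), beside 14.8% and 13.9% over all genes tested. The share of rises was near the background. Both TTN copies fell, by -2.09 ± 0.32 (ENSDARG00000000563) and -1.80 ± 0.37 (ENSDARG00000028213). Whether heart or other muscle gave these falls was not tested. The heart marker MYL7 fell by -2.10 ± 0.66 (edgeR adjusted p = 0.0409), a call lost without FACS sorted 2 or any 1 FACS total library. The marker cmlc1 had -1.23 ± 0.61 and did not pass (adjusted p = 0.165). The cardiac GATA factor gene GATA5 stood at 6.34, 6.72 and 8.58 CPM in FACS sorted, against 1.38, 0.959 and 1.68 CPM in FACS total (2.43 ± 0.37). The number of heart genes that rose was 1 without FACS sorted 1 or FACS total 2, and of those that fell 2 without FACS total 1. Of 13 mural and smooth muscle genes 3 rose (23.1%) and 4 fell (30.8%). The smooth muscle myosin gene MYH11 (ENSDARG00000009782) stood at 40.2, 27.8 and 43.7 CPM in FACS sorted, against 1.04, 1.02 and 0.592 CPM in FACS total (5.39 ± 0.38), while a second MYH11 copy (ENSDARG00000100972) had 0.44 ± 0.46 and did not pass (adjusted p = 0.518). A TAGLN copy (ENSDARG00000033466), an actin-binding gene of smooth muscle, stood at 686, 869.5 and 551 CPM in FACS sorted, against 126, 121 and 182 CPM in FACS total (2.29 ± 0.30). The other TAGLN copy (ENSDARG00000045408) was low, had -0.51 ± 0.94 and did not pass (adjusted p = 0.726). It stood at 0.352, 2.19 and 0.11 CPM in FACS sorted, against 0.662, 1.94 and 0.852 CPM in FACS total. Among the falls, TBX18, a transcription factor gene of mural cells, stood at 2.02, 1.27 and 1.48 CPM in FACS sorted, against 7.08, 3.94 and 9.59 CPM in FACS total (-2.09 ± 0.43, edgeR adjusted p = 0.00755). The mural marker acta2 was low and fell, at 0.141, 0.212 and 0.055 CPM in FACS sorted, against 0.582, 0.633 and 0.805 CPM in FACS total (-2.41 ± 0.63, adjusted p = 0.02), and its call was lost without FACS sorted 1, FACS sorted 3, FACS total 1 or FACS total 2.

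Neural genes fell in 33 of 42 cases, with a median log2 fold change of -1.93, and none rose by edgeR (0 at an unadjusted p under 0.05 and 0 by DESeq2). The neuronal RNA-binding gene ELAVL3 stood at 42.6, 25.6 and 45.2 CPM in FACS sorted, against 168, 286 and 73.4 CPM in FACS total (-2.22 ± 0.47). The neural progenitor gene sox19a stood at 31.5, 25.1 and 16.4 CPM in FACS sorted, against 151, 155 and 139 CPM in FACS total (-2.61 ± 0.30). The proneural gene ascl1b stood at 1.6, 3.33 and 1.37 CPM in FACS sorted, against 11, 19.5 and 18.3 CPM in FACS total (-2.99 ± 0.44). Neural genes were thus below FACS total in the sorted cells but not at 0. Among 111 potassium, sodium and calcium channel genes 28 fell (25.2%) and 6 rose (5.41%), beside 14.8% and 13.9% over all genes tested. KCNMA1 (ENSDARG00000079840), a calcium-activated potassium channel gene, fell by -2.38 ± 0.33, and KCNK6, a gene of a potassium leak channel, rose by 1.92 ± 0.32. The channel falls numbered 12 without FACS sorted 1, 13 without FACS total 1 and 15 without FACS total 2, and the rises 10 without FACS sorted 3.

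Lens and eye genes fell in 16 of 18 cases, with a median log2 fold change of -1.75, and none rose by edgeR (0 at an unadjusted p under 0.05 and 0 by DESeq2). The retinal field gene rx1 stood at 8.74, 7.01 and 4.43 CPM in FACS sorted, against 42.8, 38.1 and 24.7 CPM in FACS total (-2.39 ± 0.35). The lens crystallin gene CRYBB1 stood at 11.5, 13.7 and 10.8 CPM in FACS sorted, against 35.6, 33.1 and 29 CPM in FACS total (-1.44 ± 0.25). Neither of these genes overlapped between groups.

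Pigment and neural crest genes depended on FACS sorted 3. The neural crest regulator SOX10 stood at 6.37, 2.83 and 96.1 CPM in FACS sorted, against 23.6, 24 and 18.1 CPM in FACS total, a log2 fold change of 0.68 ± 1.01 that did not pass (adjusted p = 0.66) and was -2.08 without FACS sorted 3 (adjusted p = 0.00876). The pteridine synthesis gene gch2 stood at 42.2, 23.8 and 1005 CPM in FACS sorted, against 180.2, 138 and 141 CPM in FACS total, 1.22 ± 1.12 with FACS sorted 3 and -2.07 without it. The melanin synthesis gene DCT behaved differently, at 18.2, 20.2 and 19.2 CPM in FACS sorted, against 84.4, 117 and 62.5 CPM in FACS total (-2.2 ± 0.29), with even sorted libraries. Of 19 genes 5 fell (26.3%, beside 14.8% over all genes tested), and 14 without FACS sorted 3. None rose by edgeR (0 at an unadjusted p under 0.05 and 0 by DESeq2), and 1 did without FACS sorted 2.

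The epidermal list had 15 falls and 3 rises among 25 genes, and their median log2 fold change was -1.50. The basal keratin gene krt5 stood at 85.9, 129 and 22.9 CPM in FACS sorted, against 422, 394 and 1243 CPM in FACS total (-3.12 ± 0.68), and -2.37 without FACS total 3. The superficial keratin gene krt4 stood at 843, 1902 and 469 CPM in FACS sorted, against 3782, 4513 and 8984 CPM in FACS total (-2.43 ± 0.56), and -3.13 without FACS sorted 2. A simple-epithelium keratin gene went the other way, krt18a.1 at 4534, 6543 and 2871 CPM in FACS sorted, against 1048, 1169 and 1458 CPM in FACS total (1.92 ± 0.36, edgeR adjusted p = 0.00512). Its lowest sorted library lay above every FACS total library. Of 19 keratins tested, a family of which 11 of 23 genes are in the epidermal list, 10 fell (52.6%) and 4 rose (21.1%). Without FACS sorted 1 the falls were 7 in the epidermal list and 5 among keratins. The rises were 1 in either list without FACS sorted 1, FACS sorted 2, FACS total 1 or FACS total 2, and with the sample number as a block 9 epidermal genes fell.

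Among 17 genes of the pronephros and hatching gland, 9 fell (52.9%) and 1 rose (5.88%). The hatching enzyme gene he1.1 stood at 206, 428 and 133 CPM in FACS sorted, against 1619, 2166 and 6910 CPM in FACS total (-3.80 ± 0.67), -2.89 without FACS total 3 and -4.39 without FACS sorted 2. CDH17, the cadherin of the pronephric duct, stood at 4.72, 3.11 and 9.18 CPM in FACS sorted, against 29.7, 20.8 and 43.3 CPM in FACS total (-2.45 ± 0.45). The rise was CAP1, at 1.84, and was lost without FACS total 1, while without FACS sorted 2 it was 1.19. In the notochord and cartilage list 8 of 16 fell and 1 rose, CAV1 (1.25 ± 0.29), the caveolar coat gene that endothelium also uses. The notochord falls numbered 1 without FACS sorted 1, 14 without FACS sorted 2, 2 without FACS sorted 3 or FACS total 2, 3 without FACS total 1, 5 with RLE scaling and 13 with all 18 libraries in 1 fit, and the CAV1 call was lost without FACS sorted 1. Of 16 yolk layer and liver genes 3 fell (18.8%) and 1, ctsla, rose (6.25%), beside 14.8% and 13.9% over all genes tested. The share of falls was near the background. Among the falls was ctslb, described above with the lysosomal genes and also in the hatching gland list. Of the 21 genes in the yolk layer and liver list, 2 are also in the list of cathepsins and lysosomal genes. The yolk marker apobb.1 had -1.58 ± 0.74 and did not pass (edgeR adjusted p = 0.143), and it had -2.81 without FACS sorted 3. The yolk marker apoa4b.1 was removed by the low-count filter. Yolk layer and liver falls numbered 1 without FACS sorted 1 or FACS total 3 and 7 without FACS sorted 3. They numbered 5 with upper-quartile scaling, 5 by DESeq2 and 9 with all 18 libraries in 1 fit.

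**Figure D4:**
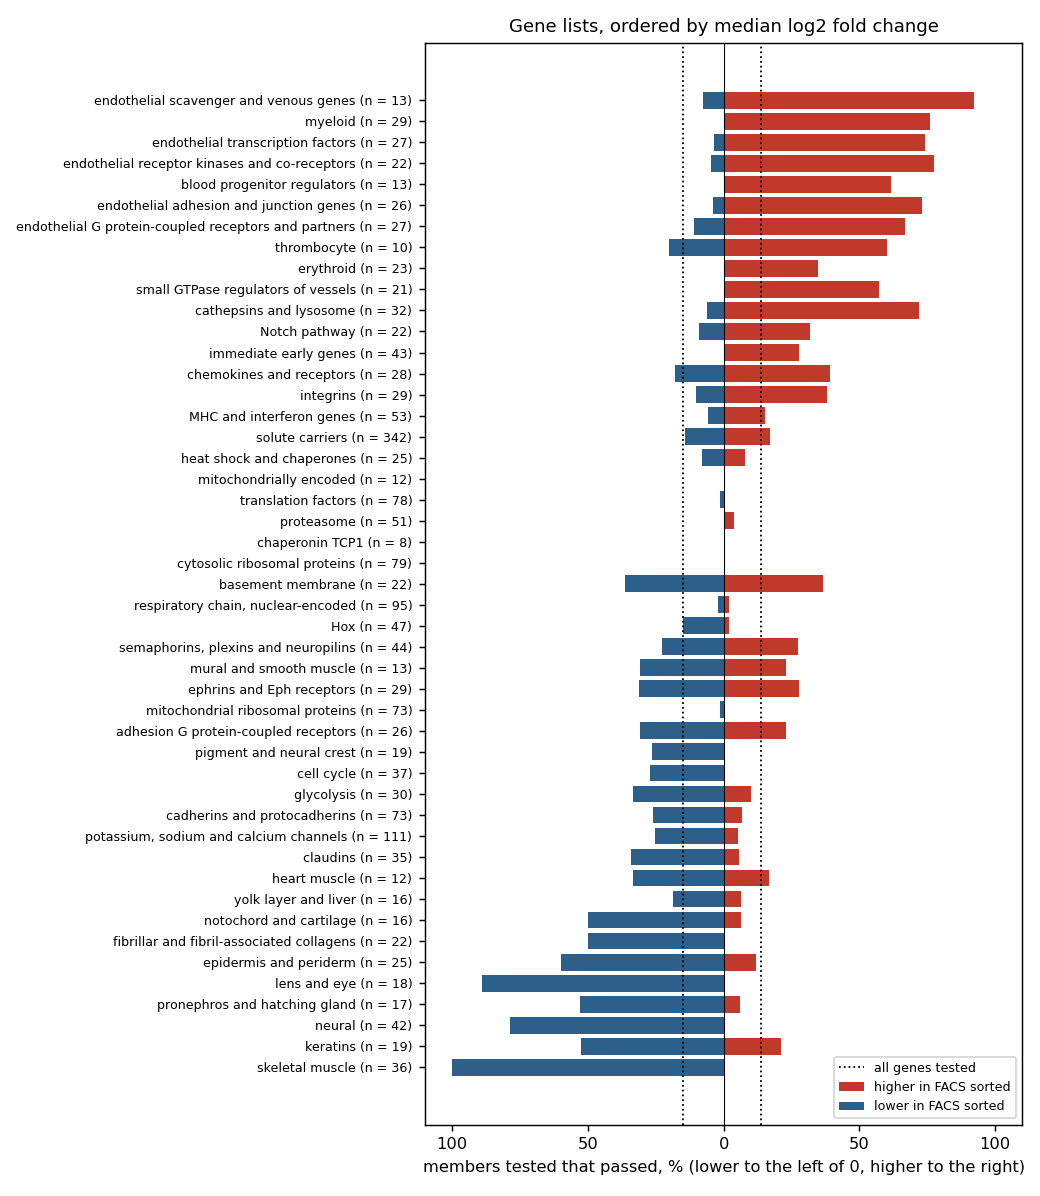
For 47 of the 49 gene lists, the bar to the right of 0 gives the percentage of tested members that rose and the bar to the left the percentage that fell, with the number tested in brackets. Dotted lines mark 13.9% and 14.8%, the shares over all genes tested. Endothelial and myeloid lists stand at the top, and keratins and skeletal muscle at the bottom.

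Immediate early genes, which respond within minutes to stimulation and to handling of cells, rose in 12 of 43 cases (27.9%), beside 13.9% over all genes tested. Of the 43, 2 are also endothelial transcription factors. None fell by edgeR (1 at an unadjusted p under 0.05 and 0 by DESeq2). The phosphatase gene DUSP5, which endothelium uses in its own right, stood at 1735, 2232 and 747 CPM in FACS sorted, against 119, 139 and 115 CPM in FACS total (3.66 ± 0.43), and the matricellular gene ccn1l2 rose by 3.21 ± 0.49. The immediate early gene ier2a stood at 966, 1241 and 358 CPM in FACS sorted, against 269.7, 334 and 168 CPM in FACS total (1.73 ± 0.46, edgeR adjusted p = 0.0223), a call lost without FACS sorted 1, FACS sorted 2, FACS total 1 or FACS total 3. FOS, JUN, egr1 and ATF3, which code for transcription factors, did not pass. JUN (ENSDARG00000043531) and egr1 had 1.16 ± 0.60 and 1.33 ± 0.77 (adjusted p = 0.186 and 0.234), and 1.52 and 1.45 without both sample 3 libraries, where both passed (adjusted p = 0.00101 and 0.00187). FOS stood at 1223, 1719.8 and 259 CPM in FACS sorted, against 1022, 1144 and 399.9 CPM in FACS total (0.32 ± 0.63, adjusted p = 0.745), and had 0.92 without FACS sorted 3. ATF3 stood at 727, 743 and 230.5 CPM in FACS sorted, against 1060, 913 and 366 CPM in FACS total (-0.46 ± 0.51, adjusted p = 0.547). Sample 3 was the lowest of both groups for FOS and ATF3. The 43 genes summed to 22784, 27640 and 9147 CPM in FACS sorted, against 12051, 12915 and 6660 CPM in FACS total. The number that rose was 25 without FACS sorted 3, 7 without FACS sorted 1, 7 without FACS total 1 and 30 without both sample 3 libraries, where 2 fell.

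Heat shock and chaperone genes rose in 2 of 25 cases (8.0%) and fell in 2 (8.0%), beside 13.9% and 14.8% over all genes tested. The collagen chaperone gene SERPINH1 (ENSDARG00000075954) stood at 342, 239 and 353 CPM in FACS sorted, against 90, 82.6 and 120.4 CPM in FACS total (1.67 ± 0.28). The muscle chaperone gene hsp90aa1.1 stood at 73, 47.3 and 149.6 CPM in FACS sorted, against 417, 247 and 1865 CPM in FACS total (-3.23 ± 0.77), -1.88 without FACS total 3, and lost its call without FACS sorted 1 (adjusted p = 0.0565). The rises numbered 1 without any 1 FACS total library and 1 with upper-quartile scaling, and the falls 0 without FACS sorted 1.

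Cell cycle genes fell in 10 of 37 cases (27.0%), beside 14.8% over all genes tested. Their median log2 fold change was -0.50, beside -0.106 over all genes tested. None rose by edgeR (0 at an unadjusted p under 0.05 and 0 by DESeq2). The replication clamp gene PCNA stood at 665, 769 and 926 CPM in FACS sorted, against 1509.6, 1285 and 1835 CPM in FACS total (-0.97 ± 0.28, adjusted p = 0.0289). CCNA2, the cyclin of S phase and mitosis, stood at 63.7, 66.5 and 78.6 CPM in FACS sorted, against 129, 129 and 139 CPM in FACS total (-0.93 ± 0.22). The groups did not overlap for either gene, but both calls were lost without FACS sorted 1 or FACS total 1, and that of PCNA also without FACS sorted 2. The number of falls was 0 without FACS sorted 1 or FACS total 1, 2 without FACS sorted 2 or FACS total 2, 5 without FACS sorted 3 and 6 with RLE scaling.

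Of 30 glycolysis genes 10 fell and 3 rose. The share of falls was above the 14.8% over all genes tested, and the share of rises was below the 13.9%. The rises were in a PKM copy (ENSDARG00000099730), the pyruvate kinase gene, by 1.17 ± 0.25, a PFKP copy (ENSDARG00000028000), the platelet-type phosphofructokinase gene, by 1.77 ± 0.41, and GAPDHS by 1.09 ± 0.34. The other PKM copy (ENSDARG00000099860) fell by -1.95 ± 0.48, at 0.493, 0.991 and 1.1 CPM in FACS sorted, against 2.31, 3.37 and 4.24 CPM in FACS total, a call lost without FACS sorted 1. An ALDOA copy (ENSDARG00000034470) stood at 23.4, 21.9 and 32.2 CPM in FACS sorted, against 159, 75.1 and 408 CPM in FACS total (-3.05 ± 0.57), and -2.18 without FACS total 3. The other copy (ENSDARG00000011665) stood at 332, 428 and 394 CPM in FACS sorted, against 365, 348 and 520.4 CPM in FACS total, -0.10 ± 0.27, which did not pass (adjusted p = 0.821). A copy of the glucose transporter gene SLC2A1 (ENSDARG00000001437) fell by -2.93 ± 0.49. The falls numbered 6 without FACS sorted 1 and the rises 0 without FACS total 1, while the call of GAPDHS was lost with upper-quartile scaling and without any 1 library other than FACS sorted 3.

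Solute carriers, 342 of which were tested, rose in 58 and fell in 49 cases, shares of 17.0% and 14.3% beside 13.9% and 14.8% over all genes. Both shares were near the background. The organic anion carrier gene slc22a7b.1 stood at 81.9, 96.3 and 57.8 CPM in FACS sorted, against 1.81, 1.22 and 2.98 CPM in FACS total (5.30 ± 0.43). The amino acid carrier gene SLC7A6 stood at 62.5, 43 and 46.3 CPM in FACS sorted, against 4.51, 5.16 and 4.66 CPM in FACS total (3.40 ± 0.28), and the nucleoside carrier gene SLC29A1 (ENSDARG00000054447) rose by 3.67 ± 0.43. The carrier gene slc6a11a fell, with a log2 fold change of -3.48, and -2.70 without FACS total 3. Rises numbered 30 without FACS total 1 and 36 without FACS total 2, and falls 27 without FACS sorted 1 and 22 without FACS total 1.

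Chemokines and their receptors rose in 11 of 28 cases (39.3%) and fell in 5 (17.9%), beside 13.9% and 14.8% over all genes tested. Their share of falls was near the background. The receptor gene CCR9 (ENSDARG00000055186), also in the myeloid list, stood at 8.08, 8.14 and 15.2 CPM in FACS sorted, against 0.201, 0.163 and 0.142 CPM in FACS total (5.93 ± 0.47). CXCL14, a chemokine of epithelia, fell by -1.85 ± 0.35. The falls numbered 2 without FACS sorted 1 or FACS total 1, 3 without FACS sorted 3, FACS total 2 or FACS total 3, and 3 with the sample number as a block. Antigen presentation and interferon genes rose in 8 of 53 cases and fell in 3, 5.66% beside 14.8% over all genes tested. The share of rises was near the 13.9% over all genes. The lysosomal thiol reductase gene ifi30a stood at 181, 277 and 82.6 CPM in FACS sorted, against 21.9, 19.4 and 34.4 CPM in FACS total (2.84 ± 0.45). The rises numbered 5 without FACS sorted 1 or FACS total 3 and 4 without FACS total 1 or 2, and the falls 1 without FACS sorted 1 or 2, 0 without FACS sorted 3 or FACS total 1, 5 by DESeq2 and 6 with all 18 libraries in 1 fit. Hox genes, which set position along the body, fell in 7 of 47 cases, 14.9% beside 14.8% over all genes tested, which is near the background. The Hox falls numbered 0 without FACS sorted 1, 1 without FACS total 1 or 2, 3 without FACS total 3 and 14 with all 18 libraries in 1 fit.

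Few genes of translation and protein turnover passed the test. Of 79 cytosolic ribosomal protein genes none passed by edgeR in either direction (0 at an unadjusted p under 0.05 and 0 by DESeq2), with log2 fold changes between -0.38 and 0.18. They summed to 104469, 160778 and 120493 CPM in FACS sorted, against 104760, 102061 and 207327 CPM in FACS total, so FACS total 3 was the highest of the 6 libraries. RPL10A, the gene of the protein tagged in this line, stood at 2548, 3587 and 2542 CPM in FACS sorted, against 1769, 1743 and 4173 CPM in FACS total (0.18 ± 0.40, adjusted p = 0.78). Whether reads of the transgene are counted with it is not given in the sources used here. Of 78 translation factors 1 fell, of 73 mitochondrial ribosomal protein genes 1 fell and of 51 proteasome genes 2 rose, and each of these counts changed with at least 1 library left out. The 8 chaperonin genes had 0 calls by edgeR, 0 at an unadjusted p under 0.05 and 0 by DESeq2, and the 12 mitochondrially encoded genes had 0 by edgeR, 1 lower at an unadjusted p under 0.05, 1 lower by DESeq2 and 1 lower without FACS total 2.

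The respiratory chain held 1 large exception. Of 95 nuclear-encoded genes 2 rose and 2 fell, and COX4I2, an alternative subunit of cytochrome c oxidase, stood at 22.3, 34 and 5.94 CPM in FACS sorted, against 1.74, 2.22 and 1.78 CPM in FACS total (3.43 ± 0.58, edgeR adjusted p = 0.00323). The usual subunit gene COX4I1 (ENSDARG00000032970) stood at 252, 348 and 324 CPM in FACS sorted, against 232, 198 and 487 CPM in FACS total (0.01 ± 0.37, adjusted p = 0.986), and its libraries overlapped. The rises numbered 1 without FACS total 1 or FACS total 2. The falls numbered 0 with FACS sorted 1 or 2 or any 1 FACS total library left out and 1 without FACS sorted 3.

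Copies of a gene were also compared, which was chosen after the values were seen. Among 1272 symbols shared by at least 2 tested genes, 50 had copies called in both directions, 65 had every copy higher and 119 had every copy lower. Another 478 had some copies called in 1 direction, with no test of the difference between copies, and 560 had none called. Over all genes tested 13.9% were higher and 14.8% lower. Whether 50 differs from the number that unrelated genes would give was not tested. The symbols below were picked for the widest gap between copies. In them every copy was called, at a mean log2 CPM of 2 or more and without overlap of groups. Of LDB2, a cofactor of LIM-domain factors, ENSDARG00000019579 stood at 179, 128 and 202 CPM in FACS sorted, against 11.8, 10 and 8.66 CPM in FACS total (4.06 ± 0.30). The other LDB2 copy, ENSDARG00000034896, stood at 4.46, 2.34 and 4.81 CPM in FACS sorted, against 17.9, 14.9 and 9.71 CPM in FACS total (-1.86 ± 0.38). The copies of NIBAN1 had 4.26 ± 0.40 (ENSDARG00000023053) and -3.50 ± 0.47 (ENSDARG00000042055). Of RASSF8, ENSDARG00000045596 stood at 114, 51.1 and 83.7 CPM in FACS sorted, against 9.91, 11.5 and 8.29 CPM in FACS total, and ENSDARG00000045485 at 5.21, 3.82 and 4.67 CPM in FACS sorted, against 16.2, 19.3 and 21 CPM in FACS total. For the integrin gene ITGB3 the copies had 2.58 ± 0.45 (ENSDARG00000045070) and -1.93 ± 0.38 (ENSDARG00000056767), and for the glycine receptor gene GLRB 4.83 ± 0.43 (ENSDARG00000052782) and -2.61 ± 0.46 (ENSDARG00000052769). Each of these 10 calls held with any 1 library left out. How the counting treated reads shared by copies is not given in the sources used here.

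**Figure D5:**
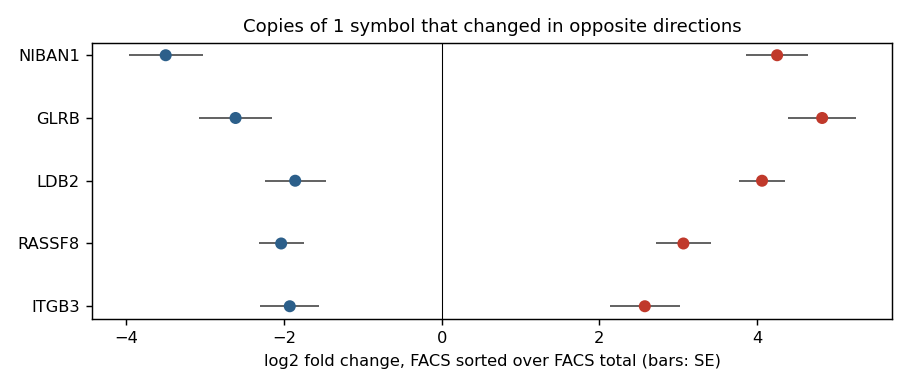
Log2 fold change, FACS sorted over FACS total, of both copies of 5 symbols whose copies changed in opposite directions, each bar 1 SE to either side. For each symbol 1 copy lies at 2.58 or above and the other at -1.86 or below.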

How the data were processed

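The authors deposited whole-number counts per Ensembl gene, with no normalization, for 25193 genes. STAR 2.4.2a, RSEM 1.2.22, DESeq2 and genome build GRCz10 are named without their roles, per the submitters' processing notes. Per the labels' protocols, stranded mRNA libraries followed poly(A) selection or ribosomal RNA depletion, without saying which. Annotation release, use of strand and whether counts are rounded RSEM estimates are not given in the sources used here. A table of Ensembl names gave 22548 genes a symbol, and 3343 share one.

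The 6 FACS libraries were fitted alone in R 4.3.3 with edgeR 4.0.16 (quasi-likelihood F test, TMM scaling, filterByExpr with minimum count 10 and minimum total 15, Benjamini-Hochberg threshold 0.05). Normalised CPM use the same TMM factors, and each SE was obtained as the size of the log2 fold change over the square root of F. The fit was also run on simulated counts with few changed genes and no outlying library. That run cannot address the dependence on single libraries. Alternatives were upper-quartile and RLE scaling, DESeq2 1.42.0, no filter, a filter of 1 CPM in 3 libraries, all 18 libraries in 1 fit, the sample number as a block, omission of mitochondrial genes with zgc:158463, and each library left out. Omission of both sample 3 libraries was added after the values were seen.

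The members and the 49 gene lists were chosen with earlier results of these data known. Of 656 list entries 35 were not matched, and 218 matched through a shared capital symbol. The patterns of 3 lists (Hox, ribosomal proteins, integrins) were corrected to the table's spelling after the files were seen. Named genes are kdrl, stab1 and rasip1, and the 12 largest rises and the 12 largest falls. Rises and falls were ranked at a mean log2 CPM of 2 or more and no overlap of groups. Only genes with a standard symbol entered that ranking, so clone, zgc and LOC names were left out. For each list, up to 4 members that moved the way of most calls and 2 that moved the opposite way were named too. Among these, genes whose call held without any 1 library were preferred, which was decided once values were known. The markers are those listed for each cell type, and NOTCH3, NOTCH1, FOS, JUN, egr1, ATF3, GAPDHS, RPL10A, COX4I1, gch2, jam2b and the second copies of CLDN5, MYH11, ALDOA and PKM were added after their values were seen. Some genes under the rule are not described, and the results of 2 of the lists are not reported here.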

Additional observations from a re-analysis of the deposited data

How the results depend on the processing

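With 1 library left out, 1668 to 3108 genes were higher and 1563 to 2741 lower, and with both sample 3 libraries left out 4053 were higher and 3526 lower. Under the other settings the counts stayed within 1.5 times the reported ones (2199 to 3371 higher, 2562 to 3657 lower). SOX10 had -2.08 without FACS sorted 3 and -2.19 without both sample 3 libraries, and gch2 -2.07 and -2.12, each the reverse of its sign with all 6 libraries, while with other single libraries left out they reached 1.23 and 1.78. The cause was not tested. No other named gene was called with the reverse sign, though MITF, not called, had 1.43 with all 6 libraries and -0.70 without FACS sorted 3. The sample numbers were not taken as pairs, since no label states a pairing. Deviations of same-numbered samples correlated at 0.314, 0.019 and 0.156, and those of samples with different numbers at -0.3 to 0.178. FACS sorted 1 and FACS sorted 3 correlated best with the FACS total library of the same number. FACS sorted 2 correlated best with FACS total 3 (0.041). Whether same-numbered samples share a source was not tested. With the sample number as a replicate block 2516 genes were higher and 2609 lower. RPL10A, which did not pass over 6 libraries, had 0.93 without both sample 3 libraries (adjusted p = 0.0135), and 2 of 79 ribosomal protein genes then rose. Immediate early genes rose in 30 cases there, and Notch genes in 15. With 3 libraries a group, calls of moderate changes depend on single libraries, and low counts limit genes near 0 CPM.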

Other observations

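The gene zgc:158463 stood at 206, 198100 and 2893 CPM in FACS sorted, against 153, 216 and 139 CPM in FACS total. Its log2 fold change of 8.63 ± 2.2 (SE) was 3.2 without FACS sorted 2, and the groups overlapped. The falls of vimr1 and krt1-19d, among the largest under the naming rule, were called with any 1 library left out, and their size depended on single libraries. The gene vimr1 stood at 0.493, 0.354 and 0.247 CPM in FACS sorted, against 4.59, 2.41 and 22.6 CPM in FACS total, a log2 fold change of -4.73 ± 0.89 that was -3.24 without FACS total 3. The gene krt1-19d, a keratin, had -4.68 ± 0.95, with -3.42 without FACS total 3, -4.0 without FACS sorted 3 and -5.69 without FACS sorted 1. Among the rises, the Notch-like gene notchl stood at 75.4, 122 and 20.9 CPM in FACS sorted, against 1.08, 1.78 and 0.521 CPM in FACS total (6.0 ± 0.74), and 5.42 without FACS sorted 2. The cytokine receptor gene il6r stood at 89.4, 80.4 and 125 CPM in FACS sorted, against 1.56, 1.88 and 2.18 CPM in FACS total (5.71 ± 0.33), and the gene ushbp1 at 101, 99.5 and 65.4 CPM in FACS sorted, against 1.83, 1.27 and 1.99 CPM in FACS total (5.71 ± 0.35).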
